A study of Mus musculus with 8 samples.

Results

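Genes for secreted matrix proteins, 8 of the 54838 genes measured by RNA-seq in mouse hepatocellular carcinoma cells, are described here. Dcn, Bgn, Fmod, Prelp, Lum and Aspn encode small leucine-rich proteoglycans or close relatives of them, Mgp encodes matrix Gla protein, and Cthrc1 encodes collagen triple helix repeat containing 1. They were taken by gene symbol, and the set was drawn up because Dcn, Bgn, Mgp and Cthrc1 had shown on-off or clone-dependent levels in these same libraries. Their levels and differences are therefore given as descriptions without a test, and tests are kept for other genes.

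The 7 libraries of 3H3PM came from subclones numbered 1, 2, 3, 6, 7, 8 and 9 in the labels, and 3H3P had 1 library; the design of the series names the comparison of the subclones with 3H3P. Both are grown in culture and descend from 3H3, a line from the liver tumour of a C57BL/6 MC4R-KO mouse kept on a high-fat diet, which carries an Hras mutation. 3H3P is 3H3 with Trp53 knocked out by CRISPR/Cas9. 3H3PM is 3H3P given ectopic MYC, and each 3H3PM subclone was isolated from a tumour that these cells formed in nude mice. MYC, growth in a mouse and subcloning cannot be told apart in this design, and each subclone is 1 isolate with 1 library, so every spread below is a spread between isolates. The variation of 3H3P itself cannot be measured from 1 library.

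Small leucine-rich proteoglycans are short horseshoe-shaped core proteins that bind collagen fibrils and set their diameter and spacing. Several also carry glycosaminoglycan chains and hold growth factors such as TGF-beta or BMPs near the cell. In liver they are made mainly by stellate cells and fibroblasts, and they accumulate in fibrous scars. Matrix Gla protein is a vitamin K-dependent inhibitor of soft tissue calcification that also binds BMPs. Cthrc1 is secreted by activated fibroblasts and arterial cells after injury and, in mice, favours WNT signalling through the planar cell polarity branch.

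Expected counts, which are RSEM's estimates and divide reads shared between genes, totalled 12838521 to 17987068 in the 3H3PM subclones and 16855985 in 3H3P, and mitochondrial genes took 1.97% to 2.31% and 3.18% of them. All pairs of libraries differed by more than sampling noise, with a chi-square per degree of freedom of 12.6 to 102 over the 21 subclone pairs and 166 to 240 over the 7 pairs with 3H3P. Trp53 transcripts stood at 53.9 ± 7.45 CPM (counts scaled to the size of the library) in 3H3PM (SD, n = 7) and 212 CPM in 3H3P, which does not check a frameshift. Mouse Myc stood at 6.54 ± 3.58 CPM in 3H3PM and 85.2 CPM in 3H3P. The labels do not say which species the ectopic MYC came from, so the mouse gene may not count it. Because the mouse gene runs against the label, the lone library is called "the library labelled 3H3P" below. Of 14634 genes that passed the filter on low counts, 2799 (19.1%) were called at an edgeR adjusted p under 0.05, with 1072 (7.33%) higher and 1727 (11.8%) lower in 3H3PM. Higher genes made up 38.3% of the calls, 49.3% with DESeq2 (1689 higher and 1739 lower) and 50.3% with limma on log2(TPM + 0.1) (1347 higher and 1329 lower).

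The labelled cell type and possible other cells were read from 6 marker lists, which leave out the 8 genes themselves. The 12 hepatocyte markers summed to 15.3 to 69 TPM (a level scaled to transcript length and library size) in the subclones and 1504 TPM in the library labelled 3H3P. Trf and Ass1 made up most of that last sum, at 725 and 627 TPM, against 4.02 to 16.5 and 10.1 to 57 TPM in the subclones. Apob and Hnf4a stood at 97.5 and 38 TPM in the library labelled 3H3P and at most 1.44 and 3.8 TPM in a subclone. The hepatocyte markers Cps1 and Cyp2e1 were at 0 in every library. Alb, the albumin gene, averaged 0.323 ± 0.774 CPM in the subclones against 3.67 CPM in the library labelled 3H3P. The 16 fibroblast and stellate cell markers summed to 59.2 to 186 TPM in the subclones and 399 TPM in the library labelled 3H3P. That last sum was nearly all Fbln2, at 16.8 to 127 TPM in the subclones and 397 TPM in the library labelled 3H3P, and Thy1, Dpt and Lrat were at 0 throughout. Other genes of this list went the opposite way. Pdgfrb, a receptor of pericytes and stellate cells, stood at 26.1 to 40.2 TPM in the subclones and 0.2 TPM in the library labelled 3H3P (log2 difference 7.24, SE 0.45, adjusted p = 6.57e-05, higher in 7 of 7). Pdgfra did not pass, at 0.9 to 92.8 TPM in the subclones and 0.18 TPM in the library labelled 3H3P (adjusted p = 0.252; 0.0166 to 0.294 over the alternatives). Col3a1, a fibrillar collagen gene, did not pass either, at 0 to 6.47 TPM in the subclones and 0 counts in the library labelled 3H3P, at least 30.7-fold higher (adjusted p = 0.142; 0.0196 to 0.233). Of the 10 endothelial markers, which summed to 21.2 to 33.8 TPM in the subclones and 5.8 TPM in the library labelled 3H3P, Tie1 and Emcn were at 0 in every library. Most of the endothelial sum was Egfl7, which rose to 20.4 to 33.3 TPM in the subclones, against 4.01 TPM in the library labelled 3H3P (log2 difference 2.30, SE 0.52, adjusted p = 0.0166, higher in 7 of 7). Vwf went the other way without passing, at 0.03 to 0.68 TPM in the subclones and 1.77 TPM in the library labelled 3H3P. Pecam1 was higher without passing, at 0.04 to 0.42 TPM in the subclones and 0 counts in the library labelled 3H3P. Of the 10 macrophage markers, which summed to 35.3 to 126 and 368 TPM, Marco and Clec4f were at 0 throughout and Ptprc had 3 counts over all subclones and 0 in the library labelled 3H3P. Most of the macrophage sum was Cd14, which fell to 25.4 to 108 TPM in the subclones, against 358 TPM in the library labelled 3H3P (log2 difference −2.84, SE 0.51, adjusted p = 0.00617). The 9 lymphocyte markers summed to at most 0.22 TPM in any subclone and 0 in the library labelled 3H3P. The 8 epithelial markers summed to 71.6 to 322 TPM in the subclones and 1735 TPM in the library labelled 3H3P, with Epcam at 0 throughout. Krt18 and Krt8 were the highest of them in that library, at 785 and 431 TPM, against 44.9 to 123 and 11.1 to 42.9 TPM in the subclones. Krt19 overlapped between the groups, at 5.76 to 204 TPM in the subclones and 142 TPM in the library labelled 3H3P. Whether cells of another type had a part in the levels below was not tested. Fewer cells of a type and less RNA per cell cannot be told apart in such bulk libraries.

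Promoter sequences, 250 bases before to 50 after the start of the gene, were held for 4 of the 8 genes in the RefSeq table of GRCm38.p6. Those of 3 are shown because they place the subclone-dependent Bgn beside the adjacent pair Prelp and Fmod. The mean levels of that pair ran in opposite directions between the groups, though the lowest subclones for Prelp were near the library labelled 3H3P. Capitals mark GGGCGG, the GC box letters, read on either strand, and the other motifs searched were the TATA box letters TATAAA, the E-box letters CACGTG and the AP-1 site letters TGANTCA, likewise on both strands. They are given 5′ to 3′ on the strand of the gene.
Bgn, chrX:73483351-73483650, + strand: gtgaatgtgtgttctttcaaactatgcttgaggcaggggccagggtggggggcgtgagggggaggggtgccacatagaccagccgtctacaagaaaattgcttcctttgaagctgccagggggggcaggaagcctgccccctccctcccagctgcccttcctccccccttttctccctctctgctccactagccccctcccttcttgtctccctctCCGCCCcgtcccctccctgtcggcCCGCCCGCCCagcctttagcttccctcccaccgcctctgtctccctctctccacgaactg
Prelp, chr1:133921352-133921651, - strand: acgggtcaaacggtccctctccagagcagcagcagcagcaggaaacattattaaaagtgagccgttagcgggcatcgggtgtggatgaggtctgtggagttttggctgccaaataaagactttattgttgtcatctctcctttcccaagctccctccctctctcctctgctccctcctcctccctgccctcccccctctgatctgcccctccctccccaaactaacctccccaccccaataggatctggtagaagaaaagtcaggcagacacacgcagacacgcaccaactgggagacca
Fmod, chr1:134037004-134037303, + strand: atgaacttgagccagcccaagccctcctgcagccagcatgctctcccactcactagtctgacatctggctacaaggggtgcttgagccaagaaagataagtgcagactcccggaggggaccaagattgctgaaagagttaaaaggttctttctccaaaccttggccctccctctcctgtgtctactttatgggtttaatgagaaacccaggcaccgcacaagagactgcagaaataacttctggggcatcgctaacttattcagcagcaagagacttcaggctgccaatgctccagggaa
The Bgn window held 9 CpG dinucleotides and 63.7% G and C, and 3 GGGCGG matches lay at −34 to −29, −10 to −5 and −6 to −1 relative to the start, the last pair overlapping. The Prelp window held 7 CpGs at 55.3% G and C and the Fmod window 3 CpGs at 51%, and none of the 4 motifs was found in either. Aspn, also matched, held 2 TATAAA matches, at −207 to −202 and −178 to −173, in a window of 31% G and C. Over all 32851 promoters of that length GGGCGG occurred in 35.7%, TATAAA in 13.6%, CACGTG in 7.15% and TGANTCA in 7.81%, and the medians were 7 CpGs and 52.7% G and C. These matches describe letters in a window and were not tied to binding.

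The 8 genes fell into 5 patterns. Dcn and Fmod were read almost only in the library labelled 3H3P, Mgp was read only in the subclones, Bgn and Cthrc1 were high in some subclones and at or under the level of the library labelled 3H3P in others, and Prelp was present in all 8 libraries. Lum and Aspn were at or near 0 throughout and were the 2 genes that did not pass the filter. Among the 6 that passed, the library labelled 3H3P lay above every subclone for Dcn and Fmod, as it did for 30.4% of all tested genes (4442). It lay below every subclone for Prelp and Mgp, as it did for 27.1% of all tested genes (3960), and inside their range for Bgn and Cthrc1. Because the set was chosen on this contrast, nothing is read from these counts.

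**Figure D1:**
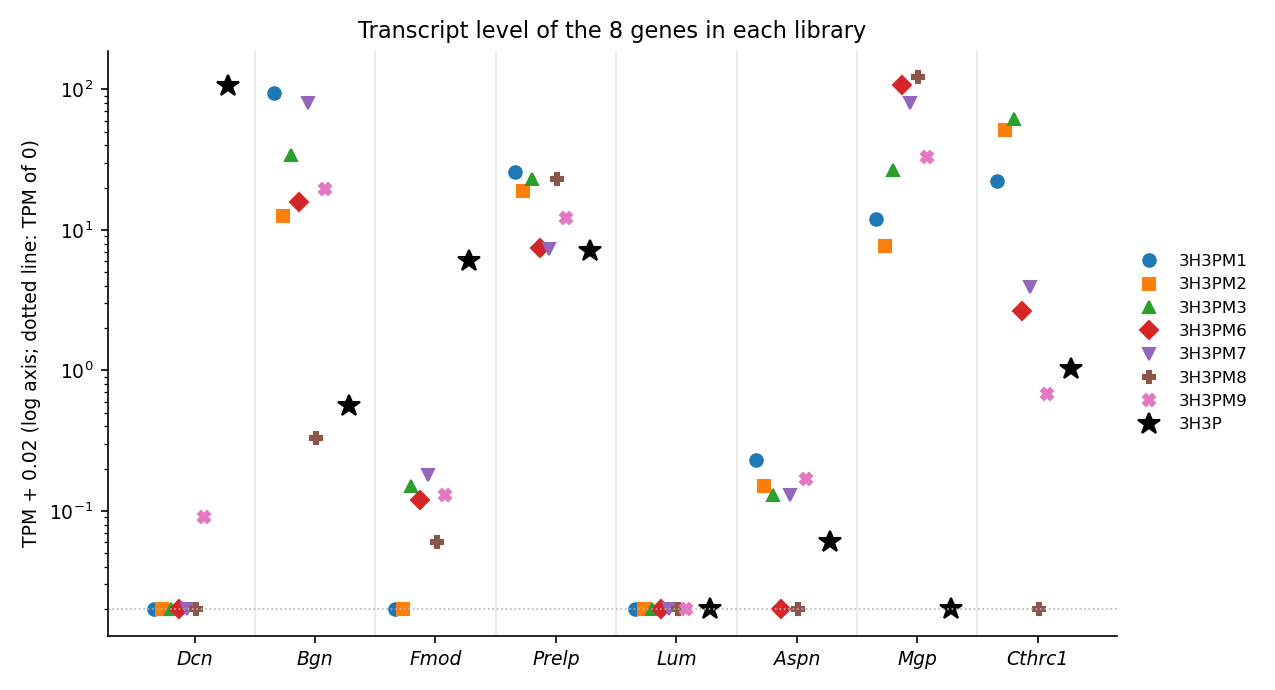
Level of each of the 8 genes in each library, as deposited TPM + 0.02 on a log axis, with 1 marker per library, the 7 subclones of 3H3PM left of the library labelled 3H3P (star), and the dotted line at a TPM of 0. Dcn is at 0 in 6 subclones and at 106 TPM in the library labelled 3H3P, Mgp is read in every subclone and at 0 in the library labelled 3H3P, and Bgn and Cthrc1 spread widely over the subclones.

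Dcn (ENSMUSG00000019929.16, chr10:97479609-97518143, + strand, GRCm38) encodes decorin, which wraps collagen fibrils and holds TGF-beta and the EGF receptor. It had 0 counts in subclones 3H3PM1, 3H3PM2, 3H3PM3, 3H3PM6, 3H3PM7 and 3H3PM8 and 1 count in 3H3PM9, against 1868 counts in the library labelled 3H3P. Decorin transcripts thus reached at most 0.07 TPM in a subclone, against 106 TPM (116 CPM) in the library labelled 3H3P. The ratio of summed counts was 12421 in favour of the library labelled 3H3P, with a 95% exact binomial interval of 2227 to 490877 that covers counting error only. The single count came from 3H3PM9, and over the other 6 subclones the library labelled 3H3P was at least 3583-fold higher, with the subclones set at 3 counts over the group. A count of 0 leaves room for 3 counts, or 0.165 to 0.229 CPM, in a subclone.

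A pattern of this kind was met in other genes too. Of the tested genes, 202 (1.38%) had at most 3 counts over all 7 subclones, and Dcn had the highest CPM of them in the library labelled 3H3P. Next came St8sia4, a polysialic acid synthase, with 2 counts over the subclones and 44.5 CPM in the library labelled 3H3P. Upk1b, a uroplakin of bladder epithelium, had 3 counts over the subclones and 44 CPM in the library labelled 3H3P. The monoamine oxidase gene Maob and the P-selectin gene Selp had 0 counts over the subclones and 41.7 and 26.1 CPM in the library labelled 3H3P. Cysltr1, a leukotriene receptor gene, had 3 counts and 40.6 CPM in the same order of groups.

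Fmod (ENSMUSG00000041559.7, chr1:134037254-134048277, + strand) encodes fibromodulin, a keratan sulphate proteoglycan that guides collagen cross-linking. It had 5 counts in 3H3PM3, 4 in 3H3PM7, 3 each in 3H3PM6 and 3H3PM9, 1 in 3H3PM8 and 0 in 3H3PM1 and 3H3PM2, against 195 in the library labelled 3H3P. In TPM the subclones lay between 0 and 0.16 and the library labelled 3H3P at 6.04, with no overlap. The mean of 0.152 ± 0.127 CPM in the subclones (SD, n = 7) was 80.1-fold below the 12.1 CPM of the library labelled 3H3P. The counting intervals of all 7 subclones overlapped along their order, so no subclone stood apart from its neighbour for Fmod. At its level in the library labelled 3H3P, fibromodulin was far below decorin, at 6.04 against 106 TPM.

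Prelp (ENSMUSG00000041577.5, chr1:133910304-133921414, - strand) lies next to Fmod on chromosome 1, and its arginine- and proline-rich protein links collagen to heparan sulphate. In TPM it stood at 26 in 3H3PM1, 23.2 in 3H3PM8, 22.9 in 3H3PM3, 19 in 3H3PM2, 12.2 in 3H3PM9, 7.39 in 3H3PM6 and 7.35 in 3H3PM7, against 7.05 in the library labelled 3H3P. A set of 4 subclones thus formed an upper group at 19 to 26 TPM, and the lowest subclones came down to the level of the library labelled 3H3P. Counting intervals of 3H3PM6, 3H3PM7 and the library labelled 3H3P overlapped in turn, at 17.8, 16.8 and 14.7 CPM. The subclones averaged 39.7 ± 18.5 CPM (SD, n = 7), 2.69-fold above the library labelled 3H3P, with a range of 3.52-fold between the highest and lowest subclone.

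The transcript lengths that RSEM weighted by abundance differed for Prelp. They were 3615 bases, the length of the coding transcript Prelp-201, in 6 subclones and 3570 bases in 3H3PM1, against 3091 bases in the library labelled 3H3P. If Prelp-201 and the short noncoding Prelp-202 of 823 bases are the transcripts involved, that length corresponds to 18.8% of Prelp transcripts being Prelp-202 in the library labelled 3H3P and 1.63% in 3H3PM1. In reads this is about 9.13 of 237 counts in the library labelled 3H3P, so the share rests on few reads. Among libraries with at least 20 counts, the lengths of Bgn also varied, from 1777 bases in 3H3PM3 to 2181 in 3H3PM6. Those of Cthrc1 ran from 1085 bases in 3H3PM2 to 1166 in 3H3PM6 and 3H3PM7. Which transcripts these reflect was not examined.

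Bgn (ENSMUSG00000031375.17, chrX:73483602-73495933, + strand) encodes biglycan, the nearest relative of decorin, which when released from matrix can stimulate TLR4. It reached 94.4 TPM in 3H3PM1 and 80.2 TPM in 3H3PM7, then 34.2 in 3H3PM3, 19.4 in 3H3PM9, 15.8 in 3H3PM6 and 12.5 in 3H3PM2, and only 0.31 TPM in 3H3PM8, against 0.54 TPM in the library labelled 3H3P. In 6 subclones Bgn was thus well above the library labelled 3H3P, while 3H3PM8, with 4 counts, and the library labelled 3H3P, with 14 counts, had overlapping counting intervals. The subclones averaged 46.5 ± 47 CPM (SD, n = 7), 53.4-fold above the 0.871 CPM of the library labelled 3H3P and 38.6-fold to 63-fold when each subclone was left out in turn. Between the highest and the lowest subclone Bgn differed 416-fold. In that order, 3H3PM9 and 3H3PM6 were the only neighbouring subclones whose counting intervals overlapped.

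The spread of a gene over the subclones was measured as the SD of log2 CPM with a prior count of 2. This SD was 2.72 for Bgn, 3.18 for Cthrc1, 1.53 for Mgp and 0.79 for Prelp, and it exceeded 1 in 6.7% of the 12151 genes with a mean of at least 1 CPM (814). Without 3H3PM8 the SD of Bgn was 1.24. The spread was part of how the genes were chosen.

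Lum (ENSMUSG00000036446.5, chr10:97565128-97572703, + strand), encoding the keratan sulphate proteoglycan lumican, had 0 counts in all 8 libraries, and no ratio is given. Aspn (ENSMUSG00000021388.14, chr13:49544443-49567565, + strand) encodes asporin, whose aspartate-rich end takes the place of glycosaminoglycan chains. It had 5 counts in 3H3PM1, 3 each in 3H3PM2, 3H3PM3 and 3H3PM9, 2 in 3H3PM7 and 0 in 3H3PM6 and 3H3PM8, against 1 in the library labelled 3H3P. Its ratio of summed counts, 2.41 with a counting interval of 0.374 to 101, did not separate the groups at this depth.

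The levels of the 6 proteoglycan genes were also summed in each library. The sum was 121 TPM in 3H3PM1, 87.8 in 3H3PM7, 57.4 in 3H3PM3, 31.9 in 3H3PM9, 31.7 in 3H3PM2, 23.5 in 3H3PM8 and 23.2 in 3H3PM6, against 119 TPM in the library labelled 3H3P. Only 3H3PM1 was at the level of the library labelled 3H3P, and the other 6 subclones were below it. Bgn made up 78.3% of the sum in 3H3PM1, 91.3% in 3H3PM7 and 59.7% to 67.8% in 3H3PM3, 3H3PM6 and 3H3PM9, and 0.453% in the library labelled 3H3P, where Dcn made up 88.5%. In 3H3PM8 and 3H3PM2 the largest share was that of Prelp, at 98.5% and 60%. These shares are of TPM, which is per length, and hold no test.

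**Figure D2:**
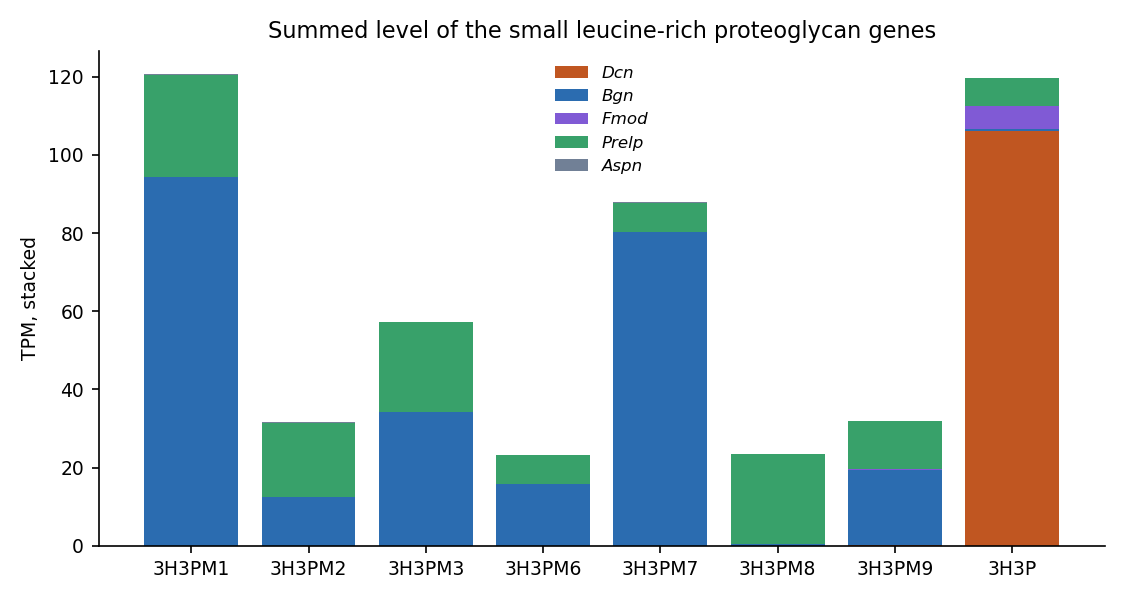
Summed TPM of the small leucine-rich proteoglycan genes in each library, stacked by gene, with the 7 subclones of 3H3PM left of the library labelled 3H3P; Lum is at 0 in every library. Bgn and Prelp fill the bars of the subclones, Dcn takes 88.5% of the bar of the library labelled 3H3P, and Bgn is nearly missing from 3H3PM8.

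Mgp (ENSMUSG00000030218.2, chr6:136872435-136875823, - strand) had 443 counts in 3H3PM8, 432 in 3H3PM6, 265 in 3H3PM7, 132 in 3H3PM3, 119 in 3H3PM9, 52 in 3H3PM1 and 32 in 3H3PM2, against 0 in the library labelled 3H3P. In TPM these were 122, 107, 80.4, 26.6, 32.8, 11.9 and 7.64 in the same order of subclones, so the calcification inhibitor was read in all 7 subclones, with no overlap with the library labelled 3H3P. The mean of 14.6 ± 12.6 CPM (SD, n = 7) was at least 78.3-fold higher than in the library labelled 3H3P set at 3 counts, and at least 62.6-fold without 3H3PM8. The counting intervals put 3H3PM8 with 3H3PM6, 3H3PM9 with 3H3PM3 and 3H3PM1 with 3H3PM2, and the highest and lowest subclone differed 16.1-fold. Il11, the cytokine in the title of the series, was also highest in 3H3PM8 and 3H3PM6, at 31.1 and 15.2 CPM, against 0.831 to 3.51 CPM in the other 5 subclones and 0.124 CPM in the library labelled 3H3P.

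At most 3 counts in the library labelled 3H3P were seen for 772 tested genes (5.28%), of which Mgp was the 16th by mean CPM in the subclones. The 5 highest were Serpinh1, the collagen chaperone, at 218 ± 210 CPM, the keratin genes Krt17 at 169 ± 316 CPM and Krt14 at 93 ± 173 CPM, the galectin gene Lgals7 at 100 ± 70.8 CPM and the transcription factor gene Foxa1 at 80 ± 53.3 CPM (SD, n = 7). The SD of both keratin genes was larger than their mean.

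Cthrc1 (ENSMUSG00000054196.7, chr15:39076932-39087121, + strand) was read at 61.5 TPM in 3H3PM3, 51.5 in 3H3PM2 and 22.2 in 3H3PM1, at 3.92 in 3H3PM7, 2.61 in 3H3PM6 and 0.66 in 3H3PM9, and at 0 in 3H3PM8, against 1.01 TPM in the library labelled 3H3P. Subclones 3H3PM1, 3H3PM2 and 3H3PM3 therefore formed a high group, and 3H3PM8 and 3H3PM9 were below the library labelled 3H3P. In counts the high group had 228, 479 and 711 and the rest 0 to 32, against 11 in the library labelled 3H3P. Counting intervals of each library from 3H3PM7 down to 3H3PM8 overlapped with the next, the library labelled 3H3P included. The mean of 12.5 ± 16.1 CPM in the subclones (SD, n = 7) was 18.3-fold above the 0.684 CPM of the library labelled 3H3P, and 11.8-fold without 3H3PM3.

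Order over the subclones was not shared by the 3 clone-dependent genes. Cthrc1 was highest in 3H3PM3 and 3H3PM2, where Mgp was at 26.6 and 7.64 TPM. Bgn was highest in 3H3PM1 and 3H3PM7. Mgp was highest in 3H3PM8, the subclone in which both Bgn, at 0.31 TPM, and Cthrc1, at 0 TPM, were lowest. The genes nearest to each in pattern were found by the root mean square distance of log2 CPM, centred over the 7 subclones, among 9128 genes with a mean of at least 10 CPM.

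Nearest to Bgn were Rgma, a BMP co-receptor, at a distance of 0.98 on the log2 scale, Mecom, a zinc finger transcription factor, at 1.06, and Alpl, the alkaline phosphatase of mineralising tissue, at 1.20. All 3 were also among the nearest by TPM. Having been picked by distance to Bgn over these same subclones, they too were lowest in 3H3PM8, with Rgma at 0.445, Mecom at 0.741 and Alpl at 1.56 CPM. In the library labelled 3H3P, Rgma was low as Bgn was, at 3.61 CPM and below every subclone except 3H3PM8, while Mecom stood at 58.7 CPM and Alpl at 348 CPM.

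Nearest to Mgp were the bicarbonate transporter gene Slc4a4 at 0.32, Rcn3, a calcium-binding protein of the secretory pathway, at 0.34, and the transcription cofactor gene Lbh at 0.36, of which only Lbh was also nearest by TPM. Rcn3 was at 4.03 to 42.7 CPM in the subclones and 0.56 CPM in the library labelled 3H3P. Slc4a4 ran from 3.64 to 34.4 CPM in the subclones, with 136 CPM in the library labelled 3H3P. Lbh ran from 2.94 to 45.9 CPM in the subclones, with 10.4 CPM in the library labelled 3H3P. Nearest to Cthrc1 were Fgf13, an intracellular member of the fibroblast growth factor family, at 1.22, Fxyd3, an ion pump regulator, at 1.45, and Kcne2, a potassium channel subunit, at 1.60, the first pair also by TPM. These distances are larger than those of Mgp, and all 3 genes were lowest in 3H3PM8, at 0.296, 0.222 and 0.0741 CPM. Among the subclones they were highest in 3H3PM1, at 79.2, 67.6 and 45.8 CPM, where Cthrc1 was at 13.5 CPM against 39 CPM in 3H3PM3. In the library labelled 3H3P they stood at 91.3, 1.62 and 0.747 CPM, and Cthrc1 at 0.684 CPM. The distances are descriptions over 7 libraries and carry no p, and choosing genes by them favours a shared lowest subclone.

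**Figure D3:**
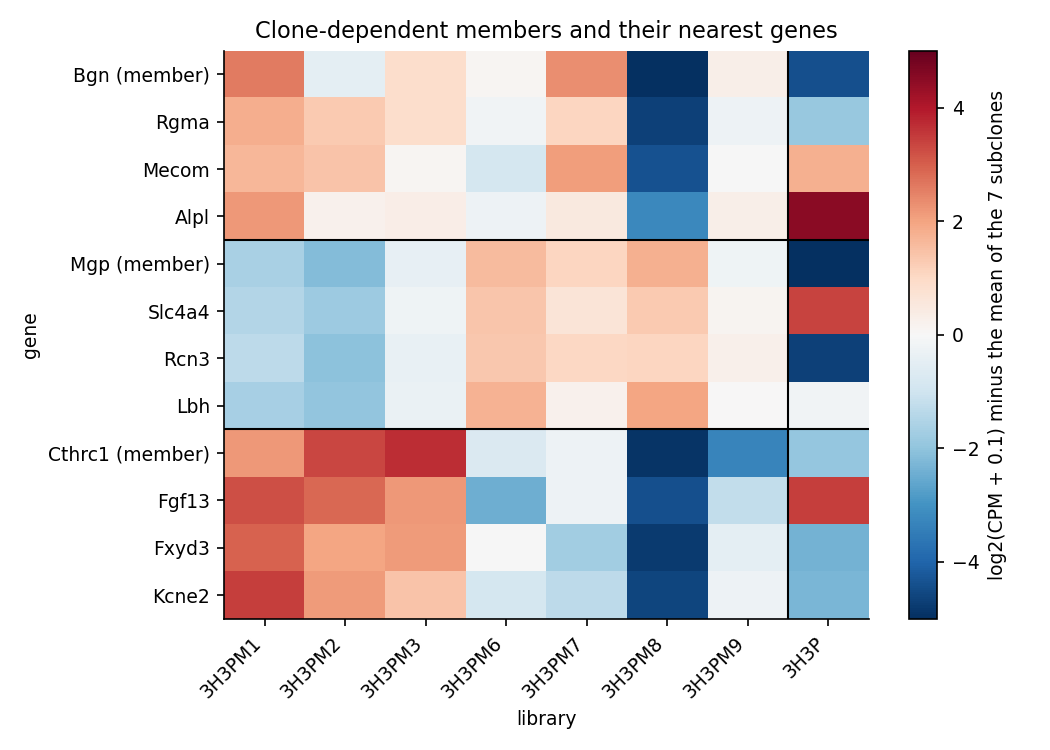
Log2(CPM + 0.1) minus the mean of the 7 subclones, by library (columns, with the subclones left of the library labelled 3H3P), for Bgn, Mgp and Cthrc1 and the 3 genes nearest to each; the colours end at 5 in either direction, and values beyond that have the end colour. Bgn, Cthrc1 and their nearest genes share a low value in 3H3PM8, and choosing genes by distance over these subclones favours this. The library labelled 3H3P, which the distance did not use, goes its own way for genes such as Alpl and Slc4a4.

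Genes next to the 8 on their chromosomes were examined in the test over all genes, with the 3 nearest protein-coding genes on each side. Of 36 such neighbours 22 were tested, 2 rose, 4 fell and 16 did not pass, 27.3% called against 19.1% of all tested genes. Their median log2 difference was −0.14, against 0.03 over all tested genes. Among the called neighbours, Fzd6 passed the filter only through the library labelled 3H3P and Ecm2 only through the subclones, which fixed their direction.

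Dcn sits in a row of small leucine-rich proteoglycan genes, followed by Lum 46985 bases away and then Kera and Epyc. All of those neighbours were at 0 counts in all 8 libraries, so within that row Dcn was alone in being read. On the other side the nearest expressed gene was Btg1, 856800 bases away, at 113 ± 15.5 CPM in the subclones and 175 CPM in the library labelled 3H3P, without passing the test (adjusted p = 0.0528; 0.0325 to 0.105 over the alternatives).

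Of the called neighbours, that of Cthrc1 had the largest log2 difference. Fzd6, a WNT receptor of the planar cell polarity branch whose gene ends 38744 bases before Cthrc1, had 11 counts over all subclones and 1270 in the library labelled 3H3P. It fell to 0.103 ± 0.115 CPM in the subclones, against 79 CPM in the library labelled 3H3P (log2 difference −9.47, SE 0.62, adjusted p = 6.57e-05, lower in 7 of 7 subclones). Atp6v1c1, a proton pump subunit, fell as well, at 63.3 ± 4.97 CPM in the subclones against 123 CPM in the library labelled 3H3P (log2 difference −0.95, adjusted p = 0.00405). Rims2, a gene of synaptic vesicle release on the other side, fell by 1.87 on the log2 scale (adjusted p = 0.0274). The Rims2 call was lost without 3H3PM3 and with limma on log2(TPM + 0.1), with an adjusted p of 0.00565 to 0.221 over the alternatives. Between Cthrc1 and Rims2, Slc25a32 and Dcaf13 did not pass the test, at 37.1 ± 8.88 and 62.9 ± 10.7 CPM in the subclones and 40 and 86.8 CPM in the library labelled 3H3P.

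Prelp and Fmod lie 115840 bases apart. On the far side of Prelp, Optc, another gene of the family, had 23 counts over the subclones and 2 in the library labelled 3H3P. Beyond it Atp2b4, a plasma membrane calcium pump, fell to 11.3 ± 7.53 CPM in the subclones, against 246 CPM in the library labelled 3H3P (log2 difference −4.44, SE 0.67, adjusted p = 0.00277, lower in 7 of 7). Btg2, next to Fmod, did not pass (log2 difference −0.14, adjusted p = 0.865). Within this stretch of chromosome 1, Fmod and Atp2b4 were thus lower in every subclone. Prelp was higher on average, and its lowest subclones, 3H3PM6 and 3H3PM7, came down to the level of the library labelled 3H3P.

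Around Aspn, the called neighbours Ecm2 and Cenpp rose, while Tes3-ps, Omd, Ogn and Nol8 were tested and not called. Ecm2, a leucine-rich repeat matrix protein gene 11654 bases away, had 150 counts over the subclones and 1 in the library labelled 3H3P, a ratio of 22.6 with a counting interval of 3.99 to 897 (adjusted p = 0.0164). Cenpp, a centromere protein gene that spans Aspn, stood at 23 ± 5.76 CPM in the subclones and 5.1 CPM in the library labelled 3H3P (log2 difference 2.17, SE 0.44, adjusted p = 0.00993). Cenpp also spans Ecm2, Omd and Ogn. How strand was treated in counting is not stated in the labels, so reads of overlapping genes may not be fully separated. The calls of Ecm2 and Cenpp may therefore not be separate. Omd, encoding osteomodulin, had 100 counts over the subclones and 1 in the library labelled 3H3P, and did not pass (adjusted p = 0.244). Of the neighbours of Mgp and Bgn, only Haus7, Dusp9, BC049715 and Arhgdib were tested. None of them passed, where 19.1% of all tested genes did, and nothing is read from so few. Haus7, a spindle protein gene beside Bgn, had a log2 difference of 0.56 (adjusted p = 0.300).

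**Figure D4:**
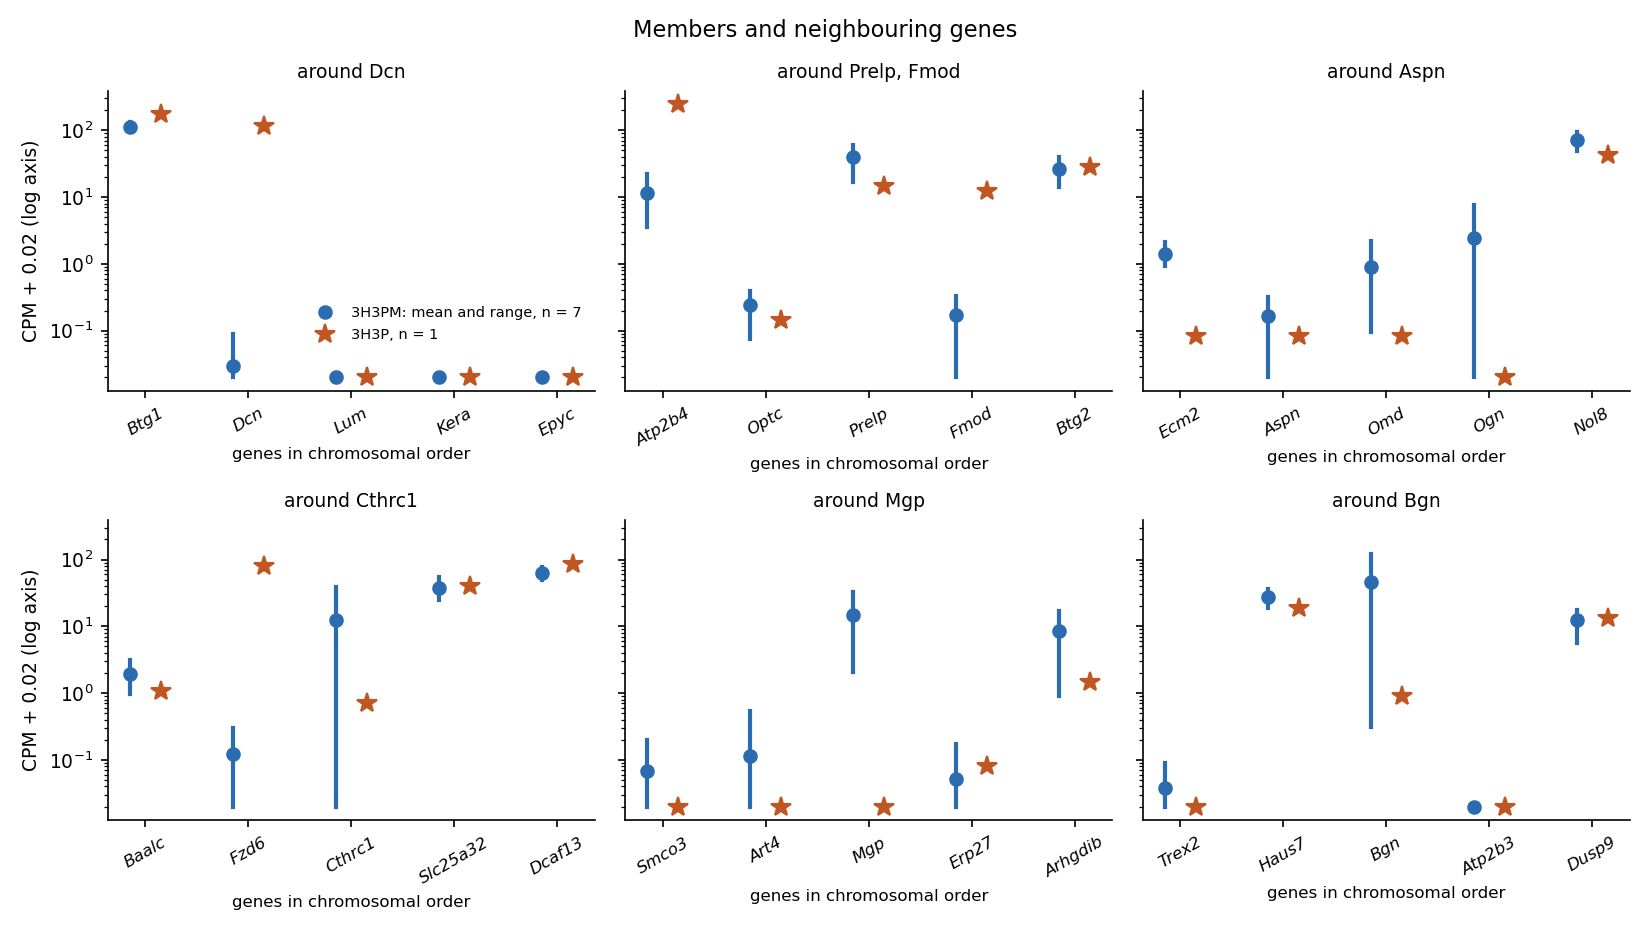
CPM + 0.02 on a log axis for the 8 genes and the nearest neighbours, in chromosomal order, as the mean and range of the 7 subclones of 3H3PM (circle and bar) and, right of it, the library labelled 3H3P (star). Fzd6 lies beside Cthrc1 and is below the library labelled 3H3P in every subclone. The mean of Cthrc1 is above that library, whose star lies inside the range of the subclones. Dcn is the only gene read in its proteoglycan row.

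A further 6 lists of genes that make, cut or act with the 8 proteins were read from the same test. They were drawn up by function, with earlier results of these data known, and are described by counts and medians only.

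Among 12 further small leucine-rich proteoglycan genes, 8 were tested, 1 rose, 1 fell and 6 did not pass, 25% called against 19.1% of all tested genes. The median log2 difference of those tested was 3.97, against 0.03 over all genes. It was 2.70 with genes at 0 counts in the library labelled 3H3P set at their bounds. Of those tested, Chad, Ecm2, Ogn, Omd and Podnl1 passed the filter on low counts only through the subclones, which fixed their direction. The median thus depends on which genes the filter let in and is not read as a rise of the list. Ecm2, described above, was the riser. Tsku, encoding the secreted WNT and BMP inhibitor tsukushi, fell to 19.8 ± 8.58 CPM in the subclones, against 70.6 CPM in the library labelled 3H3P (log2 difference −1.84, SE 0.51, adjusted p = 0.0351, lower in 7 of 7). That call was lost without 3H3PM2, 3H3PM3, 3H3PM6 or 3H3PM9 and with limma on log2(TPM + 0.1) (0.0146 to 0.0882 over the alternatives). Podnl1, encoding a podocan-like protein, stood at 0.703 to 26.5 CPM in the subclones, against 0 counts in the library labelled 3H3P; it was at least 63.6-fold higher without passing the test (adjusted p = 0.0782; 0.0018 to 0.106). Ogn, encoding osteoglycin, stood at 0 to 7.49 CPM in the subclones, likewise against 0 counts, and was at least 12.8-fold higher, with an adjusted p of 0.173 (0.0251 to 0.273).

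Glycosaminoglycan synthesis covered 36 genes, for the linker by which chains are attached, the chondroitin, dermatan and keratan chains and their sulphate. Of 30 tested, 1 rose, 8 fell and 21 did not pass, with a median log2 difference of −0.38. This was 30% called against 19.1% of all tested genes, of which 7.33% were higher and 11.8% lower. Xylt1, Csgalnact1 and Chsy3 passed the filter on low counts only through the library labelled 3H3P, which fixed their direction. The genes that fell held enzymes of several steps. Ugdh, which makes the glucuronic acid donor, fell to 207 ± 40.7 CPM in the subclones, against 587 CPM in the library labelled 3H3P (log2 difference −1.51, SE 0.24, adjusted p = 0.00331). Papss2, which makes the sulphate donor, fell to 1.49 ± 0.731 CPM in the subclones, against 44.4 CPM in the library labelled 3H3P (log2 difference −4.89, SE 0.54, adjusted p = 0.000625). Its paralogue Papss1 did not pass, at 92.2 ± 18.6 CPM in the subclones and 78.5 CPM in the library labelled 3H3P.

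Csgalnact2, which starts chondroitin chains, fell to 10.8 ± 1.45 CPM in the subclones, against 43.6 CPM in the library labelled 3H3P (log2 difference −2.01, SE 0.23, adjusted p = 0.000705). Its paralogue Csgalnact1 had 0 counts over all subclones and 25 in the library labelled 3H3P, at least 55.4-fold lower (adjusted p = 0.0384), and lost the call without 3H3PM3 (2.02e-05 to 0.0553 over the alternatives). Chsy3, a chondroitin chain synthase, had 3 counts over the subclones and 50 in the library labelled 3H3P, a ratio of 111 in favour of the library labelled 3H3P with a counting interval of 35.8 to 556. Chsy3 was called at an adjusted p of 0.00572 and not by DESeq2 (0.00135 to 0.0806 over the alternatives). Chst11, a chondroitin sulphotransferase, fell to 3.33 ± 3.3 CPM in the subclones, against 123 CPM in the library labelled 3H3P (adjusted p = 0.00601). Fam20b, the kinase of the linker xylose, fell by 1.16 on the log2 scale (adjusted p = 0.0108). Xylt1, which sets the first linker sugar, had 7 counts over the subclones and 14 in the library labelled 3H3P, and its call (adjusted p = 0.035) was lost with limma on log2(TPM + 0.1) and without 3H3PM1, 3H3PM2, 3H3PM3 or 3H3PM7 (0.0342 to 0.243). DESeq2 gave no adjusted p for Xylt1 and Csgalnact1. The gene that rose was Chsy1, another chondroitin synthase, at 67.6 ± 25.3 CPM in the subclones against 19.7 CPM in the library labelled 3H3P (log2 difference 1.78, SE 0.53, adjusted p = 0.0437). Its call was lost without 3H3PM3, 3H3PM6 or 3H3PM9 (0.00233 to 0.0668 over the alternatives). B4galt1, a galactosyltransferase of keratan-type chains, did not pass at 90.4 ± 18 CPM in the subclones and 153 CPM in the library labelled 3H3P (adjusted p = 0.0767).

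Among 26 genes for other proteoglycan cores, 15 were tested, 2 rose, 2 fell and 11 did not pass. This was 26.7% called against 19.1% of all tested genes, with a median log2 difference of 0.06. The risers were the cell surface heparan sulphate proteoglycans Gpc1, a glypican, and Sdc3, a syndecan. Gpc1 stood at 77.2 ± 31.4 CPM in the subclones and 6.91 CPM in the library labelled 3H3P (log2 difference 3.48, SE 0.83, adjusted p = 0.0194), and Sdc3 at 96.8 ± 41.1 CPM and 13.4 CPM (log2 difference 2.86, SE 0.74, adjusted p = 0.0285). Their relatives Gpc4 and Sdc1 fell. Gpc4 stood at 2.09 ± 1.68 CPM in the subclones and 38.1 CPM in the library labelled 3H3P (log2 difference −4.20, SE 1.00, adjusted p = 0.0195), a call lost with limma on log2(TPM + 0.1) (0.0085 to 0.0732). Sdc1 stood at 178 ± 13.1 CPM in the subclones and 288 CPM in the library labelled 3H3P (log2 difference −0.69, SE 0.14, adjusted p = 0.0114). Hspg2, the basement membrane proteoglycan perlecan and a binding partner of Prelp protein, did not pass at 492 ± 90.6 CPM and 513 CPM (adjusted p = 0.891). Cd44, the hyaluronan receptor, did not pass either, at 224 ± 84.3 CPM in the subclones and 486 CPM in the library labelled 3H3P (adjusted p = 0.108).

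Of 27 genes for proteases, growth factors and receptors that act on or bind these cores, 22 were tested, 0 rose, 5 fell and 17 did not pass. This was 22.7% called against 19.1% of all tested genes, with a median log2 difference of −0.91. At an unadjusted p under 0.05 the same edgeR fit had 0 higher and 8 lower, which is not separate support. DESeq2 called 0 higher and 6 lower, and limma on log2(TPM + 0.1) 0 higher and 2 lower. Without 3H3PM3 there were 0 higher and 3 lower. The signalling receptors of TGF-beta in this list both fell: Tgfbr2 to 89.9 ± 16.4 CPM in the subclones, against 201 CPM in the library labelled 3H3P (log2 difference −1.16, SE 0.24, adjusted p = 0.0109), and Tgfbr1 to 47.2 ± 9.41 CPM, against 111 CPM (log2 difference −1.23, SE 0.26, adjusted p = 0.0122). Tgfbr3, the TGF-beta co-receptor listed with the other cores, did not pass, at 22.4 ± 13.6 CPM in the subclones and 2.8 CPM in the library labelled 3H3P (log2 difference 2.99, adjusted p = 0.0641; 0.0015 to 0.0888 over the alternatives). Mmp13, a collagenase, fell by 3.62 on the log2 scale (adjusted p = 0.018), a call lost with limma on log2(TPM + 0.1) (0.00724 to 0.0639). Tlr4, the biglycan receptor, fell by 1.49 (adjusted p = 0.0282), a call lost with limma and without 3H3PM3 (0.00795 to 0.0741). Egfr, the decorin receptor, fell by 2.49 (adjusted p = 0.0453), a call lost with library size alone, with limma and without 3H3PM3, 3H3PM6 or 3H3PM9 (0.0197 to 0.197). Pcolce, the enhancer of procollagen cutting, and Lrp1, an endocytic receptor that takes up decorin, did not pass, at 350 ± 86.5 and 281 ± 166 CPM in the subclones and 364 and 374 CPM in the library labelled 3H3P.

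For Mgp, 20 genes of vitamin K-dependent carboxylation and BMP signalling were listed. Of 15 tested, 1 rose, 3 fell and 11 did not pass, with a median log2 difference of −0.35. This was 26.7% called against 19.1% of all tested genes. Gas6, another protein with vitamin K-dependent Gla residues, fell to 0.254 ± 0.132 CPM in the subclones, against 75.2 CPM in the library labelled 3H3P (log2 difference −8.14, SE 0.49, adjusted p = 6.57e-05, lower in 7 of 7). Pros1, encoding the Gla protein protein S, fell to 17.8 ± 5.82 CPM in the subclones, against 69.3 CPM in the library labelled 3H3P (log2 difference −1.96, adjusted p = 0.00984). Ggcx, the carboxylase that all these proteins need, fell to 17 ± 1.68 CPM in the subclones, against 43.5 CPM in the library labelled 3H3P (log2 difference −1.36, SE 0.19, adjusted p = 0.00212). The calls of Pros1 and Ggcx were lost with limma on log2(TPM + 0.1) (0.000731 to 0.0508 and 4.9e-08 to 0.0514 over the alternatives). The BMP receptor gene Bmpr1a rose to 327 ± 44.2 CPM in the subclones, against 149 CPM in the library labelled 3H3P (log2 difference 1.13, SE 0.23, adjusted p = 0.00954). Furin, the proprotein convertase, and Bmpr2 did not pass, with log2 differences of −0.23 and 0.23. Among these 3 Gla protein genes, Mgp and Pros1 were thus read in the subclones, where Gas6 was near 0. Mgp was at 0 in the library labelled 3H3P, where Gas6 and Pros1 were read. The on-off pattern of Mgp was part of how the genes were chosen. Gas6 passed the filter on low counts only through the library labelled 3H3P, which fixed its direction.

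For Cthrc1, 24 genes of WNT planar cell polarity signalling were listed. Of 20 tested, 3 rose, 5 fell and 12 did not pass, 40% called against 19.1% of all tested genes, with a median log2 difference of 0.09. Fzd6, Prickle1, Vangl2 and Wnt5a passed the filter on low counts only through the library labelled 3H3P, and Wnt11 only through the subclones. The filter thus fixed their direction, and the share called is not read as a result about the list. Core members went both ways. Celsr2, a cadherin of the pathway, rose to 45.2 ± 8.54 CPM in the subclones, against 5.91 CPM in the library labelled 3H3P (log2 difference 2.93, SE 0.36, adjusted p = 0.00103), and the co-receptor gene Ptk7 rose to 129 ± 33.1 CPM, against 15.1 CPM (log2 difference 3.09, SE 0.44, adjusted p = 0.00197). Wnt11, a ligand, was at least 9.96-fold higher in the subclones, since the library labelled 3H3P had 0 counts (adjusted p = 0.033), a call lost without 3H3PM3 and with limma on log2(TPM + 0.1) (0.00935 to 0.0553).

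Fzd6, described above beside Cthrc1, was among the 5 that fell. Prickle1, a cytoplasmic member, fell to 0.238 ± 0.1 CPM in the subclones, against 13.1 CPM in the library labelled 3H3P (log2 difference −5.75, SE 0.48, adjusted p = 0.000176). Vangl2, a membrane member, had 0 counts over the subclones and 70 in the library labelled 3H3P, at least 155-fold lower (adjusted p = 0.0174). Wnt5a, a ligand, had 3 counts over the subclones and 15 in the library labelled 3H3P, a ratio of 33.2 in favour of the library labelled 3H3P with a counting interval of 9.41 to 179 (adjusted p = 0.0233), and DESeq2 gave it no adjusted p. Rhoa, a downstream GTPase gene, fell by 0.78 on the log2 scale (adjusted p = 0.0124). Rac1 and Dvl1, also downstream, did not pass, at 420 ± 31.4 and 89.3 ± 12.6 CPM in the subclones and 422 and 57.5 CPM in the library labelled 3H3P.

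**Figure D5:**
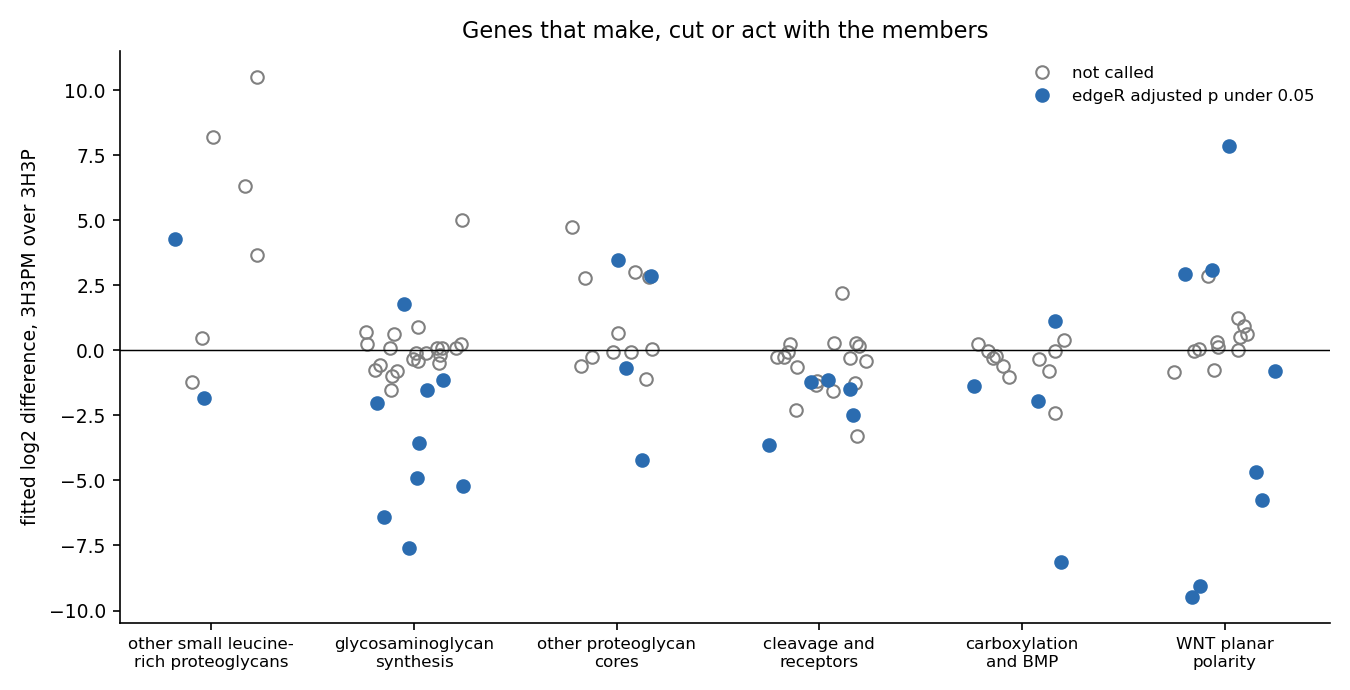
Fitted log2 difference of 3H3PM over the library labelled 3H3P for each tested gene of the 6 lists, with filled points for genes called at an edgeR adjusted p under 0.05 and open points for the rest; 0 is no difference. The glycosaminoglycan synthesis points that are called lie below 0 except Chsy1, and the planar cell polarity points lie on both sides; fitted values of genes with 0 counts in a group depend on the prior count.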

How the data were processed

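Per the labels' protocols, total RNA with an integrity number above 7 was used for directional NEBNext libraries. The submitters' processing notes name STAR, RSEM, FastQC and DESeq2 and the build GRCm38 (mm10); which versions, options and strand setting the authors chose is not given there. Per the file headers, the authors deposited for each gene an expected count and TPM from RSEM, an FPKM that was not used here, and transcript lengths in bases. Levels are the TPM deposited by the authors or CPM computed here from the deposited expected counts with TMM scaling.

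The members and the lists were chosen with earlier results of these data known. Expected counts were rounded and tested with edgeR 4.0.16 (R 4.3.3; glmQLFit and glmQLFTest) on all 8 libraries after filterByExpr by group, and p-values were adjusted over all 14634 tested genes by the Benjamini-Hochberg method. The spread came from the subclones (residual degrees of freedom 6), and 3H3P was taken to vary likewise. The method was tested on simulated data. Alternatives were RLE scaling, library size alone, DESeq2 1.42.0, no filter, a stricter filter, limma 3.58.1 on log2(TPM + 0.1), prior counts of 0.5 and 5 and each subclone left out. The stricter filter kept genes with at least 1 CPM in 7 libraries or at least 1 CPM in 3H3P. A group at 0 was set at 3 counts for "at least" folds. Groups with 1 to 3 counts have a ratio with a 95% exact binomial interval, and counting intervals of single libraries are exact Poisson; both cover counting error only.

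Besides the 8 members, the named genes were, of each list, up to 4 called genes of smallest p and up to 2 uncalled genes of highest CPM, the called neighbours, the 3 genes nearest in pattern and the 5 highest genes with a like on-off pattern, leaving out Gm, Rik and pseudogene symbols. The marker genes, the remaining called list genes, Tgfbr3, Chad, Btg1, Btg2, Haus7, Dusp9, BC049715, Arhgdib, Tes3-ps, Nol8, Omd, Optc, Slc25a32 and Dcaf13, were named after their values were seen. Positions come from GENCODE vM21, which held 14079 of the tested genes. Promoters come from RefSeq; those of Dcn, Lum, Mgp and Cthrc1 were not used here.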

Additional observations from a re-analysis of the deposited data

Results flagged for a closer look

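For 38 list and neighbour genes named in the report, the highest or lowest subclone was compared with the rest by Dixon's ratio, the gap to the nearest other subclone over the whole range of log2 CPM, against Dixon's 95% critical value for 7 samples. Chance passes this value in about 1 group of 20. The 8 members were left out, since they were chosen on these values. For Chsy3 the ratio was 1.00 in 3H3PM7, which held all 3 counts read over the subclones, and any read in 1 library alone gives that ratio. Gas6 had a ratio of 0.59 for 3H3PM8, with 0 counts there and at most 0.355 CPM elsewhere. Pcolce had a ratio of 0.64 for the high value of 3H3PM2, at 538 CPM, with 290 CPM in the lowest subclone. No cause was tested for any of these.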

How the results depend on the processing

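Over the alternatives, 345 of 378 values kept their direction and stayed within 1.5 times of the count, or within the spread between subclones, and none reversed. DESeq2 called 1689 genes higher, and without 1 subclone the number was 669 to 1185. Of the list counts, DESeq2 gave 3 higher for the further small proteoglycans, 2 higher and 5 lower for glycosaminoglycan synthesis, 4 higher for other cores and 5 lower for the Mgp list. With limma on log2(TPM + 0.1) there were 0 lower for the further small proteoglycans, 1 lower for other cores, 2 lower for proteases and receptors and 1 lower for the Mgp list. The stricter filter left 0 higher for the further small proteoglycans and 1 higher among the neighbours, since Ecm2 was no longer tested. Without 1 subclone the further small proteoglycans had 1 to 2 higher and 0 to 1 lower, glycosaminoglycan synthesis 0 to 1 higher, and proteases and receptors 3 to 6 lower. The log2 ratio of Dcn ran from −13.30 to −13.27 without 1 subclone other than 3H3PM9, and without 3H3PM9, where the subclones are at 0 and set at 3 counts, −11.81 is a bound and not a ratio. The SD of Dcn over the subclones was 0.62 and 0.11 with prior counts of 0.5 and 5 and 0.00 without 3H3PM9, and that of Fmod was 1.47 and 0.40. The median log2 difference of all tested genes was 0.03, and it was 0.10 with library size alone and 0.21 without a filter. For glycosaminoglycan synthesis, DESeq2 gave no adjusted p for Xylt1 and Csgalnact1 and did not call Chsy3, which leaves its 5 lower. Apart from this and the stricter filter, the cause of these shifts was not tested. No ratio could be had for Lum, which was at 0 throughout, or for Mgp on TPM, where the library labelled 3H3P was at 0. No paired analysis was possible because 3H3P had 1 library, which carries no number shared with a subclone. Depth limits what can be said of Lum, Aspn, Fmod in the subclones and Dcn in the subclones, where 3 counts correspond to 0.165 to 0.229 CPM.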
